A study of Mus musculus with 8 samples.

Results

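The transcripts of 3 cytokines of the interleukin-1 family were followed in newborn mouse epidermis: Il33, which encodes IL-33, and Il1f6 and Il1f9, the older symbols for the genes of IL-36 alpha and IL-36 gamma. Every probe set was taken whose gene symbol in the authors' deposited table of knockout against control was exactly one of these names. This gave 1 probe set per gene, 3 of the 1396 gene symbols that the table pairs with a probe set of a single symbol. The authors had chosen the entries of that table on these same arrays, with an absolute fold of at least 1.5 and an unadjusted p of at most 0.0499, so a probe set of these genes that did not meet both limits has no name here.

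The tested epidermis was labelled dKO, with the genotype IR-/-, IGF-1R-/- (4 samples), a label for deletion of the genes of the receptors for insulin and for insulin-like growth factor 1. The control epidermis was labelled wild type (4 samples), and both groups were newborn and of the strain C57Bl/6. The epidermis had been taken off the dermis before RNA extraction, and each sample was read on 1 Affymetrix mouse 430 2.0 array. The labels call the samples biological replicates without saying whether each was a single animal, so the p-values measure the spread between these samples. The sources used here do not give how the receptor genes were deleted, or in which cells.

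IL-1 family cytokines are made by epidermal keratinocytes and act as early signals of damage. IL-33 is held in the nucleus, is set free when cells are injured, and binds the receptor ST2 (Il1rl1) on mast cells, innate lymphoid cells and T cells. The IL-36 cytokines bind another receptor, Il1rl2, on keratinocytes and dendritic cells, and both receptors use the shared chain Il1rap and signal through Myd88 to NF-kB. In mouse skin, keratinocytes make more IL-36 after wounding and in psoriasis-like inflammation.

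In the RefSeq gene table of assembly GRCm38.p6, Il1f9 and Il1f6 are neighbours on chromosome 2, in a run of 6 family genes ordered Il1f8, Il1f9, Il1f6, Il1f5, Il1f10 and Il1rn. Il33 lies apart from them on chromosome 19. RefSeq promoter sequences of build GRCm38.p6 were found for 2 of the 3 genes, Il33 with 2 start sites and Il1f9 with 1. The 250 bases before each start are shown because these are the promoters of transcripts described together here. They are read 5′ to 3′ on the plus strand, at chr19:29924863-29925112 and chr19:29945540-29945789 for Il33 and at chr2:24186226-24186475 for Il1f9. Capitals mark matches to the motifs searched.
Il33 start site 1: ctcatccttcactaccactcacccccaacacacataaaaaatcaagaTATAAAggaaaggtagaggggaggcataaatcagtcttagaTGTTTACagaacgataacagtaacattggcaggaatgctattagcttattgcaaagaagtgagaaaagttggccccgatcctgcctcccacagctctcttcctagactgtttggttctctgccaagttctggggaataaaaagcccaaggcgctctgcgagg
Il33 start site 2: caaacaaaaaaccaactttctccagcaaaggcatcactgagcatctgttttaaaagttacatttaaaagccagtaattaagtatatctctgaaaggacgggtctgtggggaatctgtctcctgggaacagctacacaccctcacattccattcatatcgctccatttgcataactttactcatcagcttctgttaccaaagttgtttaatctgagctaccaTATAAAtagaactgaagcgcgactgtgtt
Il1f9 start site: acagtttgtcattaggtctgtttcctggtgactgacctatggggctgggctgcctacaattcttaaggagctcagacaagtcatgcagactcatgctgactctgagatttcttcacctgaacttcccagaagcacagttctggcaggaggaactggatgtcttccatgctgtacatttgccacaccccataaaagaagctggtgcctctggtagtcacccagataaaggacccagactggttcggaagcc

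The motifs searched on both strands were TGANTCA for AP-1, GGGA and CC spaced by any 4 bases for NF-kB, TGTTTAC for FoxO factors, which insulin signalling holds out of the nucleus, and the TATA box TATAAA. The window before Il33 start site 1 held the letters TGTTTAC at 162 to 156 bases before the start and TATAAA at 203 to 198 bases. The window before start site 2 held TATAAA at 29 to 24 bases before the start. No match to the other motifs was found in either Il33 window, nor to any of the 4 motifs in the Il1f9 window. Over 32851 RefSeq promoter windows of 250 bases, 3.17% held TGTTTAC, 12.4% TATAAA, 6.75% TGANTCA and 17.6% the NF-kB motif. None of the motifs overlapped another in these windows.

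Signals are given in the linear units of the deposited value table, in which every array had the same 2% trimmed mean of 250. Differences are log2 dKO minus control from limma, a linear model that borrows the spread of all probe sets, with Benjamini-Hochberg adjustment of each p across the 45032 probe sets tested. An adjusted p under 0.05 counts as changed. In all 2.25% of probe sets changed, 0.993% being higher and 1.25% lower in dKO, and among the 1396 named genes 42.1% changed, 19.7% being higher and 22.4% lower. A level per probe set depends on its own probes, so levels are compared between arrays and not between genes. Fewer cells of a type and less RNA per cell cannot be told apart in whole epidermis.

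The genotype labels were checked first. Insr, the insulin receptor gene, read 50.7 to 87.6 units in dKO and 176.1 to 309.6 in controls, a log2 difference of -1.79 (SE 0.23, limma adjusted p = 0.00319). Igf1r, the gene of the receptor for insulin-like growth factor 1, read 314.7 to 369.1 units in dKO and 456.0 to 707.0 in controls in its brightest probe set, a difference of -0.76 (SE 0.14, limma adjusted p = 0.0176). Its other 3 probe sets disagreed, with differences of -0.98, -0.65 and 0.88 (limma adjusted p = 0.00438, 0.0597 and 0.061). The brightest lost its call when dKO replicate 2 was left out (adjusted p = 0.0593), or either of control replicates 1 and 2 (adjusted p = 0.0753 and 0.0517). Without the intensity trend neither Insr nor the brightest Igf1r probe set passed (limma adjusted p = 0.0662 and 0.158). Array medians lay between 40.7 and 51.7 units. Arrays correlated at 0.912 to 0.927 within dKO, 0.903 to 0.929 within controls and 0.897 to 0.918 between the groups. The log2 ratio of 3 prime to 5 prime signal for the Actb control probe sets, a sign of RNA quality, was 0.372 to 0.586 in dKO and 0.512 to 0.767 in controls. For Gapdh it was -0.479 to -0.430 in dKO and -0.546 to -0.270 in controls.

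Both arrays numbered 4 stood apart from their groups in genes of activated keratinocytes, and calls that change without them are given both ways. Over 23 named genes known to be induced by IL-1, IL-36 or IL-33 in keratinocytes, described further on, the mean log2 level relative to the control mean was 2.54 in dKO replicate 4 and 4.23 to 4.70 in dKO replicates 1 to 3. It was 0.93 in control replicate 4 and -0.38 to -0.19 in control replicates 1 to 3.

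Il33 had the widest difference of the 3 cytokines. It read 3563.4, 732.3, 1656.0 and 337.3 units in dKO replicates 1 to 4, against 39.3, 64.3, 32 and 158.2 units in control replicates 1 to 4. Every dKO array lay above every control, and the gap between the groups was narrow next to the spread within them: the lowest dKO array, replicate 4, was 2.13-fold above the highest control, also replicate 4. The mean was 1572 ± 1438 units in dKO and 73.4 ± 58.2 in controls (SD, n = 4 per group). Il33 rose 18.4-fold, a log2 difference of 4.20 (SE 0.64, 95% interval 2.82 to 5.58, limma adjusted p = 0.00599). Ordered from the largest increase in dKO to the largest decrease, it ranked 20 of 45032 probe sets. The authors' deposited table gives a ratio of 23.9 for Il33. That ratio is not the 18.4-fold of limma, and the processing notes do not give the role of the tools used.

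Il33 was dim in controls, where 56.7% of probe sets had a lower mean, and bright in dKO, where 94.6% did. With 32 added to each signal, which shrinks differences that rest on dim values, the log2 difference was 3.58 (SE 0.59, limma adjusted p = 0.0138). Its call ended when the variance was estimated robustly or without an intensity trend (limma adjusted p = 0.0659 and 0.114), and it held without each single array (adjusted p 0.00132 to 0.0304).

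Il1f6, the IL-36 alpha gene, had a smaller difference than Il33 and ranged less widely within groups than Il33 or Il1f9. It read 3257.1, 3150.6, 3449.7 and 1974.1 units in dKO replicates 1 to 4, against 550.3, 585.7, 760.1 and 680.0 units in control replicates 1 to 4. The groups did not overlap, and the lowest dKO array, again replicate 4, was 2.60-fold above the highest control. The mean was 2958 ± 667 units in dKO and 644 ± 94.8 in controls (SD, n = 4 per group). Il1f6 rose 4.53-fold, a log2 difference of 2.18 (SE 0.17, 95% interval 1.80 to 2.55, limma adjusted p = 0.00027). By p it ranked 3 of 45032 probe sets, and from the largest increase in dKO to the largest decrease 254. The call held under each of the 16 alternative fits, with log2 differences of 2.09 to 2.39. The authors' deposited table gives a ratio of 4.66 for Il1f6.

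Il1f9, the IL-36 gamma gene, did not pass the threshold over all arrays. It read 1624.0, 989.7, 1126.1 and 534.3 units in dKO replicates 1 to 4, against 384.6, 431.0, 746.6 and 549.7 units in control replicates 1 to 4. The groups overlapped through dKO replicate 4, which lay below control replicates 3 and 4, while dKO replicates 1 to 3 lay above every control. The mean was 1069 ± 449 units in dKO and 528 ± 161 in controls (SD, n = 4 per group). The log2 difference was 0.96 (SE 0.29, 95% interval 0.33 to 1.59, limma adjusted p = 0.123), a 1.94-fold difference. Without dKO replicate 4 it was 1.25 and passed (limma adjusted p = 0.0135), and without both arrays numbered 4 it was 1.29 and passed (adjusted p = 0.0209). In the other 14 of 16 alternative fits it did not pass. The authors' deposited table gives a ratio of 1.93 for Il1f9 and an unadjusted p of 0.0425, inside the table's limit of 0.0499.

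**Figure D1:**
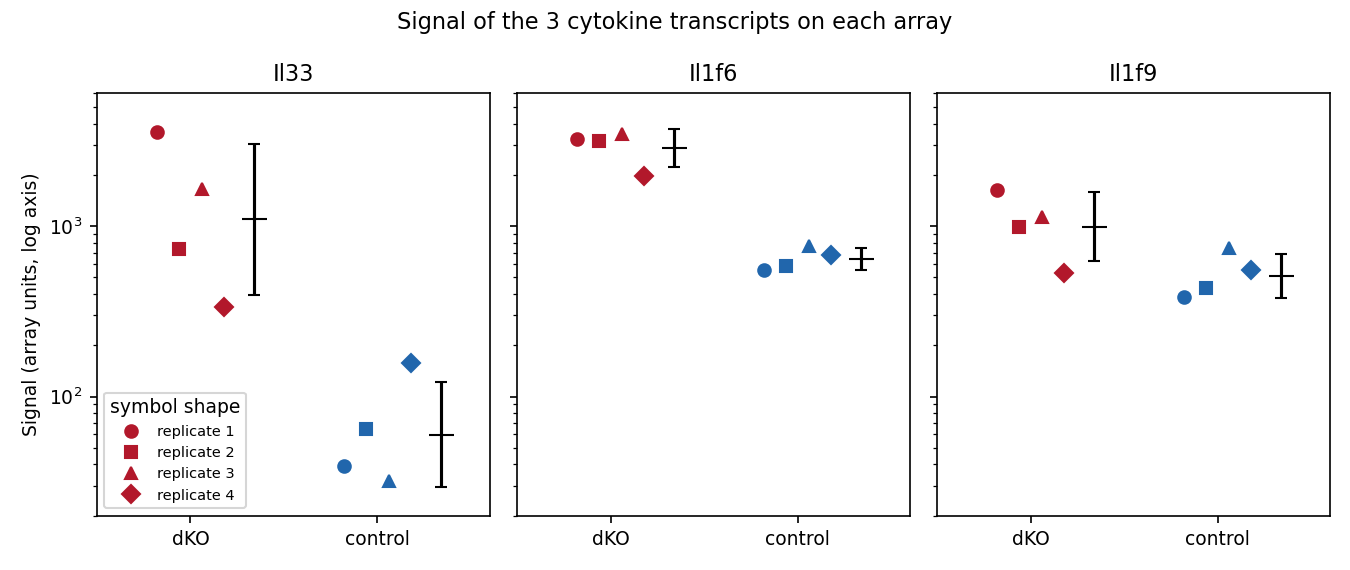
Signal of Il33, Il1f6 and Il1f9 on each array (log axis, array units), with dKO in red and controls in blue, symbol shape giving the replicate number, and the black mark and bar giving the mean and SD of the log2 values (n = 4 per group). The 4 dKO arrays lie above all controls for Il33 and Il1f6, and dKO replicate 4, at 534.3 units, lies within the controls for Il1f9.

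Of the 3 cytokines, 2 rose and 0 fell, against 0.993% of all probe sets and 19.7% of named genes that were higher. The groups did not overlap in 2 of them, with dKO higher, as in 3.44% of all probe sets, while dKO was lower without overlap in 5.93%. The authors' limits on fold and p, set on these same arrays, favour groups that do not overlap. Shares of all probe sets are therefore not a like base for named genes, and the share among named genes was not computed. Centring each array on its median moved the median of all probe sets by 0.125 on the log2 scale, and relative to that centre the differences were 4.32 for Il33, 2.30 for Il1f6 and 1.08 for Il1f9.

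The 3 genes were also compared with each other for how far dKO lay from control, on each array's log2 ratio between a pair of genes. For the 3 pairs an exact permutation test (two-sided) went through the 70 ways of dividing the 8 arrays into groups of 4. Its smallest possible p is 0.0286, and the p-values were adjusted over the pairs. The difference of Il33 exceeded that of Il1f9 by 3.24 (exact permutation p = 0.0286, adjusted p = 0.0429), with 4 of 4 dKO arrays above every control. The difference of Il1f6 exceeded that of Il1f9 by 1.22 (exact permutation p = 0.0286, adjusted p = 0.0429), again with 4 of 4 dKO arrays above every control. In this test the 2 neighbouring IL-36 genes were unequal. Il33 and Il1f6 were not told apart: their differences were 2.02 apart (exact permutation p = 0.0857, adjusted p = 0.0857), and 2 of 4 dKO arrays lay above every control. Leaving out dKO replicate 1, control replicate 3 or control replicate 4 took the adjusted p of both passing pairs to 0.0857, 0.0857 and 0.0571.

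The members varied within groups in partly the same order of arrays. Among dKO arrays Il33 and Il1f9 shared the order replicate 1, 3, 2 and 4 from high to low, and Il1f6 had the order 3, 1, 2 and 4. All 3 genes were lowest in dKO replicate 4. Among controls Il1f6 and Il1f9 shared the order replicate 3, 4, 2 and 1, while Il33 was highest in control replicate 4 and lowest in control replicate 3. Relative to the control mean on the log2 scale, Il33 stood at 5.90, 3.61, 4.79 and 2.50 in dKO replicates 1 to 4 and at -0.61, 0.10, -0.90 and 1.40 in control replicates 1 to 4. The dKO values of Il33 ranged over 10.6-fold and its control values over 4.94-fold. For Il1f6 these ranges were 1.75-fold in dKO and 1.38-fold in controls, and for Il1f9 3.04-fold in dKO and 1.94-fold in controls.

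The spread of all 3 genes in dKO was above that of most probe sets of like level, and that of Il33 was the widest. The SD of its log2 signal was 1.47 in dKO and 1.03 in controls. Of 2331 probe sets within 0.5 log2 units of its mean dKO level, 99.7% had a lower SD in dKO, and of 4827 within 0.5 log2 units of its mean control level, 97.7% had a lower SD in controls. For Il1f9 the SD was 0.67 in dKO, where 97.5% of probe sets of like level had a lower one, and 0.42 in controls, where 94.7% did. For Il1f6 it was 0.37 in dKO, where 90.2% had a lower one, and 0.21 in controls, where 66.1% did.

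**Figure D2:**
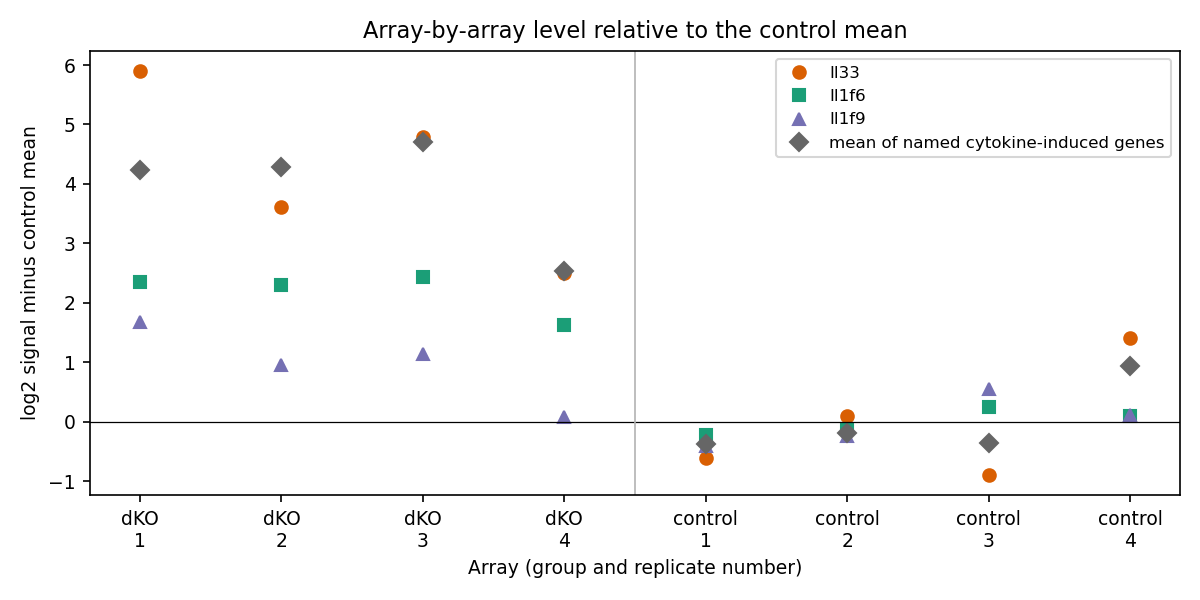
Log2 signal of Il33, Il1f6 and Il1f9 on each of the 8 arrays minus the gene's control mean, with the mean over 23 named cytokine-induced keratinocyte genes as grey diamonds. All 4 series are lowest among dKO arrays in replicate 4, and Il33 (1.40) and the grey diamonds (0.93) are highest among controls in replicate 4.

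The rest of the IL-1 family was read through lists of pathway genes. Only genes with a name in the authors' deposited table could be counted, and since the authors chose that table on these arrays the lists' direction is not independent evidence. Over 7 overlapping lists 47 different genes had a name, of which 33 rose and 1 fell (limma, Benjamini-Hochberg), or 70.2% higher against 19.7% of all named genes. The 47 include Il33, Il1f6 and Il1f9 themselves. The lists were also chosen with earlier results of these data known, so these 2 shares are not a test of the pathway. The median difference of all named genes was -0.59 and that of all probe sets -0.07.

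Of 10 IL-1 family ligand and antagonist genes 5 had a name, with a median log2 difference of 1.41. Besides Il33 and Il1f6, 1 more rose and 0 fell. Without dKO replicate 4 all 5 rose, and without the intensity trend 1 of the 5. Il1a, which encodes the ready-made alarm cytokine IL-1 alpha of keratinocytes, read 75.4, 228.4, 196.4 and 123.8 units in dKO replicates 1 to 4, against 57.1, 62.7, 48.4 and 47.8 units in control replicates 1 to 4. The groups did not overlap, and dKO replicate 1, where Il33 was highest, had the lowest Il1a of the dKO arrays. Il1a rose by 1.41 (SE 0.32, limma adjusted p = 0.0398), a dim gene whose difference with 32 added was 1.05 and did not pass (limma adjusted p = 0.063). Its call also ended in 6 of 8 fits that left out 1 array, those without dKO replicates 2 or 3 or without any single control (limma adjusted p up to 0.137), and without both arrays numbered 4 (adjusted p = 0.0735).

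Il1rn, the antagonist of the IL-1 receptor, averaged 1170 ± 349 units in dKO and 714 ± 95.7 in controls (SD, n = 4 per group). Its log2 difference of 0.67 (SE 0.20, limma adjusted p = 0.11) did not pass, and the groups overlapped through dKO replicate 4 at 737.6 units. Without dKO replicate 4 it was 0.88 and passed (limma adjusted p = 0.0106). Of 11 receptor and decoy genes 1 had a name, Il1r2, a decoy that binds IL-1 without signalling. It averaged 463 ± 105 units in dKO and 283 ± 130 in controls (SD, n = 4 per group), a difference of 0.78 (SE 0.25, limma adjusted p = 0.153). Without control replicate 4 it was 1.06 and passed (limma adjusted p = 0.0143), as it did without both arrays numbered 4 (1.12, adjusted p = 0.013). The receptor genes Il1rl1 and Il1rl2, through which IL-33 and IL-36 act, were not analysed here, having no name in the authors' deposited table.

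Of 30 genes of IL-1 receptor signalling and NF-kB 6 had a name, of which 3 rose and 0 fell, with a median difference of 1.21. Without the intensity trend 0 of the 6 rose. Nfkbiz, an inducible nuclear partner of NF-kB that IL-1 and IL-36 induce in keratinocytes, read 1092.9, 2991.2, 3123.1 and 1463.2 units in dKO replicates 1 to 4, against 569.6, 330.1, 623.7 and 310.4 units in control replicates 1 to 4. It was higher on every dKO array than on any control, and rose by 2.17 (SE 0.33, limma adjusted p = 0.00621). Rel, a subunit of NF-kB, rose by 2.14 (SE 0.33, limma adjusted p = 0.00633). Irak3, a brake on signalling from IL-1 receptors, rose by 1.24 (SE 0.27, limma adjusted p = 0.0377), and its call ended in 5 of 8 fits that left out 1 array, those without dKO replicates 2 or 3 or control replicates 1, 2 or 3 (adjusted p up to 0.122).

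Of the remaining genes of this list, the inhibitors Tnfaip3 and Nfkbia had differences of 1.19 and 0.73 in their brightest probe sets, which did not pass (limma adjusted p = 0.0652 and 0.101). Over all their probe sets Tnfaip3 ranged over 1.19 to 1.42 with 1 of 2 past the threshold, and Nfkbia over 0.73 to 1.29 with 2 of 4 past it. The brightest probe set of Tnfaip3 passed without dKO replicate 1 (1.34, adjusted p = 0.0464), without dKO replicate 4 (1.44, adjusted p = 0.0155), without both arrays numbered 4 (1.31, adjusted p = 0.0281) and after median centring (1.31, adjusted p = 0.0402). With the replicate number as a block the brightest probe sets of Tnfaip3 and Nfkbia both passed (limma adjusted p = 0.0118 and 0.0386). Relb, another subunit, had 0.54 (limma adjusted p = 0.371) and is named outside the rule, after its value was seen. The order of dKO arrays differed from that of Il33 for Nfkbiz, Rel and Tnfaip3. They were highest in dKO replicates 2 and 3 and lower in replicates 1 and 4, whereas Il33 was highest in replicate 1.

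Of 33 genes that process or inactivate these cytokines or belong to the same protease systems 4 had a name, of which 2 rose and 1 fell. Without the intensity trend 0 rose and 0 fell. Capn2, a subunit of the calpain proteases that can cleave IL-1 alpha and IL-33, read 2750.2, 1310.7, 1977.2 and 1020.5 units in dKO replicates 1 to 4, against 473.8, 527.2, 498.3 and 599.3 units in control replicates 1 to 4. It rose by 1.65 (SE 0.24, limma adjusted p = 0.00527) and had the same order of dKO arrays as Il33 and Il1f9. Ctss, which encodes cathepsin S, a protease of antigen-presenting cells that in human cells activates IL-36 gamma, fell by 1.38 (SE 0.22, limma adjusted p = 0.00765). Its signal was 274 ± 90.7 units in dKO and 694 ± 139 in controls (SD, n = 4 per group).

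The serpins, inhibitors of proteases, gave 1 change of 2. Serpinb3a rose by 0.91 (SE 0.18, limma adjusted p = 0.0245), a call that ended in 5 of 8 fits that left out 1 array, those without dKO replicates 2 or 3 or control replicates 1, 2 or 3 (adjusted p up to 0.0944). Serpinb1a, which inhibits neutrophil proteases, read 27.4 to 83.6 units in dKO and 14.6 to 21.7 in controls, a difference of 1.32 that did not pass (limma adjusted p = 0.145).

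**Figure D3:**
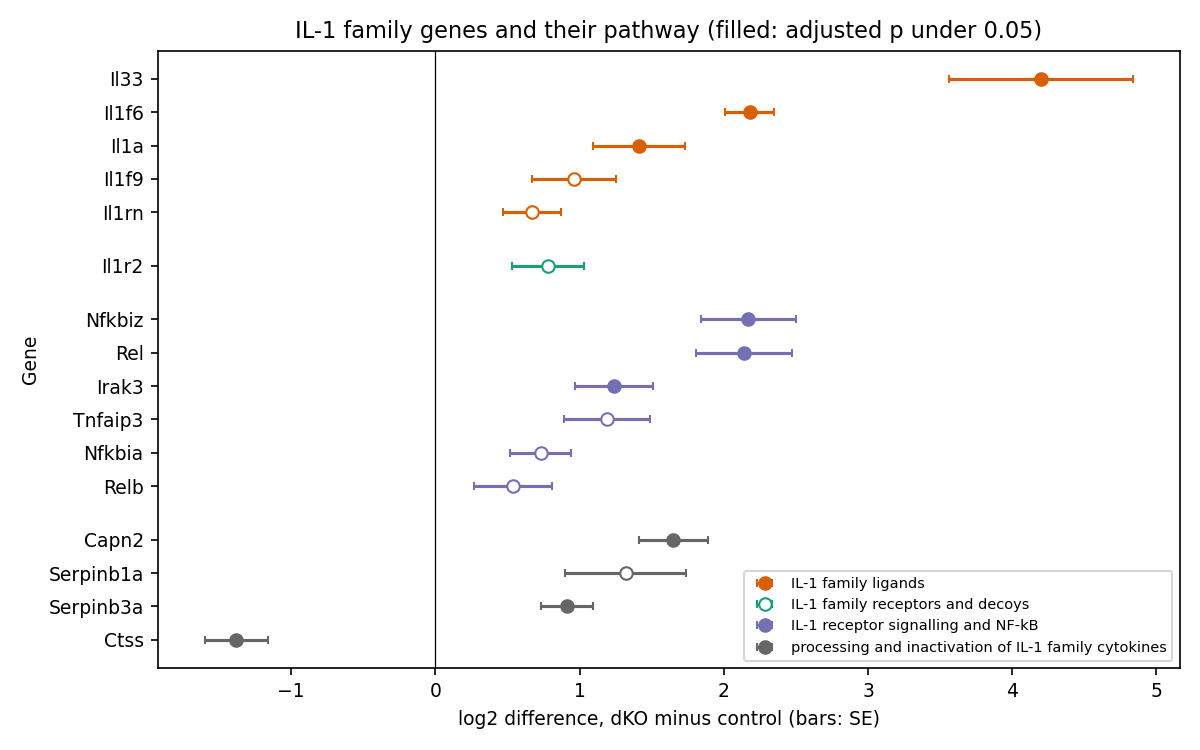
Log2 difference, dKO minus control, with SE for the 16 named genes of the IL-1 family ligand, receptor, signalling and processing lists (4 arrays per group), filled where the adjusted p was under 0.05. Il33 (4.20) and Il1f6 (2.18) lie highest among the ligands, and Ctss (-1.38) is the 1 gene below 0.

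Genes that IL-1, IL-36 or IL-33 are known to induce in keratinocytes were the longest list, with 23 of 41 genes named. Of these 19 rose, 0 fell and 4 did not pass (limma, Benjamini-Hochberg), with a median log2 difference of 3.82. With robust variance estimation 11 of the 23 rose, and without the intensity trend 3. Ccl20, a chemokine for lymphocytes and dendritic cells, read 358.3 to 1002.9 units in dKO and 3.9 to 19.0 in controls, a difference of 6.34 (SE 0.47) or 3.98 with 32 added. The stress keratins Krt6a and Krt16 rose by 4.61 (SE 0.44) and 4.19 (SE 0.53), the EGF receptor ligand Ereg by 3.82 (SE 0.37) and Lce3c, a late envelope protein, by 3.34 (SE 0.42). All 5 had adjusted p between 0.000224 and 0.00288 in limma with Benjamini-Hochberg adjustment. The brightest probe set of Krt6a is of a kind that can also detect near-identical transcripts, so its signal may include Krt6b. The probe sets read for Lce3c, Lce3b and Serpinb3a are of the same kind. Those for Sprr2h, S100a8 and Serpinb1a may likewise be shared between transcripts.

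Of 19 markers of cells that carry the IL-33 receptor ST2, 2 had a name. Areg, a growth factor that such cells and keratinocytes both make, rose by 3.16 (SE 0.45, limma adjusted p = 0.00452). Gata3, a transcription factor of type 2 lymphocytes and also of keratinocytes, read 824.6, 793.7, 757.0 and 1510.0 units in dKO replicates 1 to 4, against 1257.5 to 1716.2 in controls. Its difference of -0.71 (SE 0.20, limma adjusted p = 0.0932) did not pass, with dKO replicate 4 among the controls, and without that array it was -0.94 and passed (adjusted p = 0.00286).

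Among 24 regulators and growth factors tied to the expression of stress cytokines 10 had a name, of which 9 rose and 0 fell, with a median difference of 1.22. Without control replicate 1, 5 of the 10 rose, and without the intensity trend 1. Areg and Ereg belong to this list too. Fosl1, a subunit of AP-1, read 227.7, 911.2, 1207.3 and 274.9 units in dKO replicates 1 to 4, against 70, 33.3, 33.9 and 55.8 units in control replicates 1 to 4. It rose by 3.48 (SE 0.48), the EGF receptor ligand Hbegf by 2.61 (SE 0.36) and Maff, a small Maf factor, by 1.08 (SE 0.14), with limma adjusted p of 0.00411, 0.0043 and 0.00342. Fosl1 and Hbegf were, like Nfkbiz, highest in dKO replicates 2 and 3.

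Markers of other cell types moved between the groups, and their part in the cytokine results was not tested. Of 17 myeloid and Langerhans cell markers 8 had a name, of which 0 rose and 5 fell, and their summed signal was 509 to 1845 units in dKO and 2357 to 3777 in controls. All 8 fell without dKO replicate 4 or without both arrays numbered 4, and 2 or 3 of them fell in the fits that left out any other single array. Of 10 T cell and lymphocyte markers 3 had a name and all 3 fell, with summed signals of 86.0 to 229 units in dKO and 418 to 537 in controls. Probe sets with a signal of 0 on any array had been left out, so no marker could be listed at 0. In dKO Cd3d read 2.9 to 5.4 units, Cd3g 13.8 to 36.6 and Coro1a 68.9 to 188.3, where array medians were 40.7 to 47.4. Of 11 fibroblast markers 4 had a name, of which 1, Sparc, rose. Their summed signal was 2441 to 3991 units in dKO and 1516 to 2147 in controls. Most of it was Sparc, with means of 2593 in dKO and 1546 in controls. Col5a1 and Fbn1 had differences of 0.80 and 1.05, and Fap went the other way at -1.39. None of these passed (limma adjusted p = 0.126, 0.229 and 0.103). The call of Sparc ended without both arrays numbered 4, and when dKO replicate 2, dKO replicate 3 or control replicate 1 was left out. Fibroblasts and endothelial cells can make IL-33, and no endothelial or mast cell marker had a name.

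The neutrophil markers with a name were S100a8 and S100a9, 2 of 10, which activated keratinocytes also make and which are on the induced list. Their summed signal ran from 430 to 22813 units in dKO and from 33.7 to 598 in controls, with dKO replicate 4 the lowest dKO array. S100a8 read 247.9 units in dKO replicate 4, below control replicate 4 at 391.8, whereas Il33 and Il1f6 in dKO replicate 4 were above control replicate 4. Both S100 genes rose over all arrays, by 6.18 (SE 1.20) and 6.99 (SE 1.25), with limma adjusted p of 0.0203 and 0.0139. These calls ended without dKO replicate 3 or without control replicate 1, 2 or 3, and that of S100a8 also without dKO replicate 2 (adjusted p up to 0.0562 for S100a9 and 0.0761 for S100a8). Both are named outside the rule for named genes, after their values were seen.

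Of 5 erythroid markers 2 had a name, of which 1, Alas2, rose by 3.03 (limma adjusted p = 0.00486), and their summed signal was 164 to 456 units in dKO and 43.3 to 70.6 in controls. Of 6 muscle markers 1 had a name, the tropomyosin gene Tpm2, which rose by 1.92 (limma adjusted p = 0.00138). Of 5 adipocyte markers 2 had a name, with 13.0 to 49.2 units in dKO and 56.4 to 320 in controls, of which 1, Pparg, fell by 4.02 (limma adjusted p = 0.00466) on signals of 1.5 to 4.1 units in dKO. The 1 named of 5 melanocyte markers, Tyrp1, had a difference of 0.98 that did not pass in the reported fit (limma adjusted p = 0.0786). It passed after median centring, with the replicate number as a block, without control replicate 4 and without both arrays numbered 4. Sparc, Col5a1, Fbn1, Fap, Cd3d, Cd3g, Coro1a, Alas2, Pparg and Tyrp1 are named as markers, after their values were seen.

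Of the 10 keratinocyte markers 2 had a name, the keratin genes Krt15, which fell, and Krt77, which rose (limma, Benjamini-Hochberg). Their summed signal was 5351 to 12491 units in dKO and 9707 to 14605 in controls. Whether the cytokine transcripts came from keratinocytes was not measured in these whole epidermis samples.

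Genes with a like pattern were sought among named genes past the threshold, 1 probe set each, by the root mean square distance between log2 signals relative to the control mean over the 8 arrays. The nearest to Il33 of 587 candidates was Slpi, an inhibitor of leukocyte proteases, at a distance of 0.46. Slpi read 4201.7, 888.9, 1214.6 and 197.8 units in dKO replicates 1 to 4, against 21.0, 71.8, 36.5 and 111.3 units in control replicates 1 to 4. Like Il33 it was highest in dKO replicate 1, lowest among dKO arrays in replicate 4 and highest among controls in replicate 4. This likeness follows largely from its being chosen as the nearest over these same arrays. Its rise of 4.29 (SE 0.74, limma adjusted p = 0.0111) ended under robust variance estimation, as that of Il33 did. Both calls also ended without the intensity trend, where 60 probe sets changed in all, against 1012 in the reported fit. Krt16 (0.70), Krt6a (0.76), the protease inhibitor Spink12 (0.76) and the envelope protein gene Lce3b (0.78) came next.

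The nearest to Il1f6 were Fam46b (0.31), Oaf (0.32), the sugar transporter Slc5a1 (0.34), the envelope precursor Sprr2h (0.34) and Tpm2 (0.37), the muscle marker given above. These rose by 1.88 to 2.44 on the log2 scale (limma adjusted p between 0.000712 and 0.00522). The nearest to Il1f9 of 588 candidates were Sdcbp2 (0.28), the kinase Rps6ka4 (0.29), the lipid hydrolase Abhd6 (0.32), Kdelr3 (0.33), a receptor that retrieves proteins to the endoplasmic reticulum, and Mtap7d1 (0.33). They rose by 0.81 to 1.09 (limma adjusted p between 0.00965 and 0.0497). The call of Kdelr3 ended in 7 of 8 fits that left out 1 array, all but that without dKO replicate 4, that of Rps6ka4 in 6, that of Abhd6 in 4 (limma adjusted p up to 0.0965) and that of Mtap7d1 in 3 (adjusted p up to 0.0521). Between the cytokines themselves the distance was 0.90 for Il1f6 and Il1f9, 1.73 for Il33 and Il1f6 and 2.45 for Il33 and Il1f9.

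**Figure D4:**
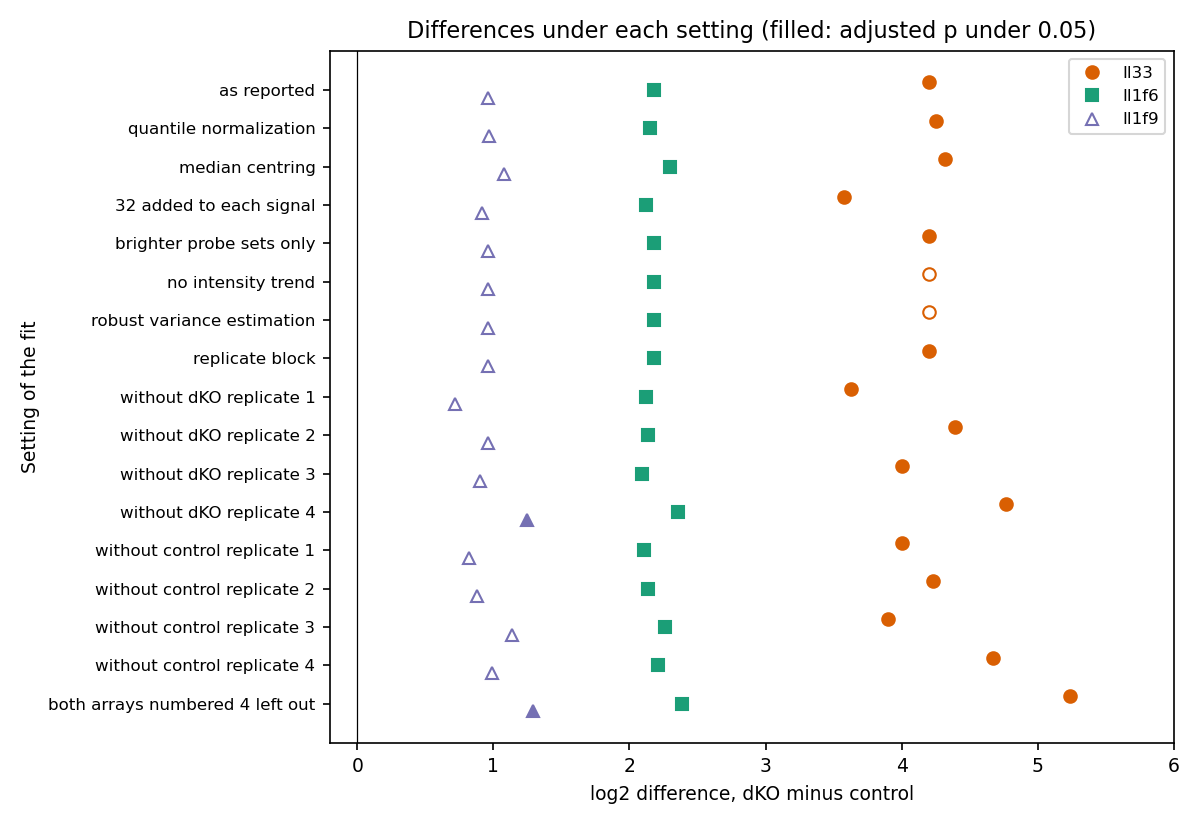
Log2 difference, dKO minus control, of Il33, Il1f6 and Il1f9 in the reported fit and under each of 16 alternative settings, filled where the adjusted p was under 0.05. Il1f6 is filled throughout at 2.09 to 2.39, Il33 is open in 2 settings that change the variance model, and Il1f9 is filled without dKO replicate 4 and without both arrays numbered 4.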

How the data were processed

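RNA of 4 dKO and 4 control epidermis samples was read on 8 arrays, 1 per sample, and groups were taken from the labels. The deposited value table holds 1 linear intensity per probe set. Per the submitters' processing notes MAS5 and Partek were used, with no role or version stated, and every array's 2% trimmed mean was 250. The authors' deposited table of 2007 probe sets gives a ratio, a signed fold change (a score), an F score and an unadjusted p-value per probe set, and supplied all gene names. Of its probe sets tested here, 1803 carry 1 symbol, while 71 entries carry several and 130 none, and these were not named.

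Control probe sets (64) and those with a signal of 0 on any array (5) were left out of 45101. Log2 signals with nothing added were fitted with limma 3.58.1 in R 4.3.3 (lmFit, eBayes with an intensity trend), with Benjamini-Hochberg adjustment across 45032 probe sets, after the script had been tested on simulated data. A gene with several probe sets was read from its brightest. The number of arrays limits the precision.

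The members, lists and tests were chosen with earlier results of these data known. The rule for named genes took the 3 cytokines, both receptor genes, up to 5 genes per pathway list by smallest p, and the 5 nearest profiles per cytokine. Alternatives were quantile normalization, median centring, 32 added, brighter probe sets only, no intensity trend, robust variance, the replicate number as a block and each array left out. Leaving out both arrays numbered 4 was chosen after seeing the data.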

Additional observations from a re-analysis of the deposited data

Results flagged for a closer look

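In 3 of the 86 groups of 4 arrays examined 1 array lay far from the other 3, where chance gives about 1 in 20 groups, or 4.3 of them. Il1f6 in dKO replicate 4 was 1974.1 units, below the 3150.6 to 3449.7 units of the other dKO arrays. Gata3 in dKO replicate 4 was 1510.0 units, above the 757.0 to 824.6 units of the other dKO arrays. Spink12 in dKO replicate 1 was 929.0 units, above the 159.6 to 187.7 units of the other dKO arrays.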

How the results depend on the processing

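No difference of a named cytokine, list gene or marker gene changed sign under an alternative. The balance of higher and lower calls over all probe sets turned under median centring, under quantile normalization and without control replicate 1. Il33 lost its call without the intensity trend (4.20, limma adjusted p = 0.114) and with robust variance (4.20, adjusted p = 0.0659). With 1 array left out its difference was 3.63 to 4.77, that of Il1f6 2.09 to 2.36 and that of Il1f9 0.72 to 1.25, and Il1f9 passed without dKO replicate 4. Without both arrays numbered 4, Il33 was 5.24, Il1f6 2.39 and Il1f9 1.29, the last then past the threshold. The exact permutation comparisons between cytokines that passed ranged over 2.76 to 3.67 (Il33 against Il1f9) and 1.11 to 1.40 (Il1f6 against Il1f9) with 1 array left out. They lost their calls without both arrays numbered 4 (3.95 and 1.10, exact permutation adjusted p = 0.1, the smallest p possible there).

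The 1012 changed probe sets became 60 without the intensity trend, 1525 without both arrays numbered 4 and 353 to 1417 with 1 array left out (508 without dKO replicate 2, 438 without dKO replicate 3, and 353, 431 and 529 without control replicates 1, 2 and 3). They split into 447 higher and 565 lower in dKO, or 607 and 322 after median centring. The split was 470 and 465 after quantile normalization, and 195 and 158 without control replicate 1. The 34 changed pathway genes became 4 without the trend, 39 without both arrays numbered 4 and 22 (without control replicate 1) to 40 with 1 array left out. Without both arrays numbered 4, 4 of the 5 named ligand genes rose, the 1 named receptor gene, 4 of 6 signalling genes and 20 of the 23 induced genes. The cause of these shifts was not tested.

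Samples of the same number did not deviate together (correlations of 0.0433, 0.0246, -0.0277 and -0.0879), so the numbers were not taken to pair them. With the replicate number as a block, the adjusted p was 0.0166 for Il33, 0.000617 for Il1f6 and 0.138 for Il1f9, and 698 probe sets changed. The differences of 3.24 and 1.22 between cytokines then had adjusted p = 0.188 by exact sign flips, which allow no p below 0.125.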
